A study of Mus musculus with 8 samples.

Results

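The genes of the cytosolic ribosomal proteins were followed in round spermatids of 4 Miwi genotypes. Members were the genes whose platform symbol begins with Rpl or Rps and a digit, together with Rplp0, Rplp1, Rplp2 and Rpsa. Kinases of the Rps6k family, Rps19bp1 and symbols marked as pseudogenes were left out. The rule used names and no measured change, and it took 62 of the 19938 genes on the arrays, 38 with Rpl symbols (large subunit) and 24 with Rps symbols (small subunit). All 62 matched a RefSeq mouse gene by Entrez number, and 1 of them, Rps4l, is listed there as a transcribed pseudogene. A further 20 symbols that fit the names stood only on array features shared with other genes and are not analysed here.

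The study measured total RNA of round spermatids, the early haploid germ cells, on Affymetrix arrays. The cells came from adult C57BL/6 mice and were separated from collagenase-treated testes on an albumin gradient. MIWI is the protein of Piwil1, a PIWI protein that binds piRNAs, and the series concerns its catalysis and the silencing of LINE1 elements. Of the 4 genotypes, MIWI +/- and MIWI +/KI keep 1 wild-type allele, paired with a null allele in the former and with a knock-in allele in the latter. In MIWI -/- both alleles are null, and in MIWI -/KI the knock-in allele is paired with a null. No group carried 2 wild-type alleles, the labels do not say what the knock-in changes, and no further agent or treatment is named. Each group had 2 arrays that the titles call biological replicates, and it is not stated whether a replicate was 1 mouse or several. Every p-value here rests on the spread between such preparations within a genotype. In the main fit that spread was pooled over all 4 genotypes, so a wide gap in 1 genotype enters the tests of the others. The RNA of each preparation came from pooled gradient fractions.

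Each ribosome has a small subunit, which reads the messenger RNA, and a large subunit, which joins the amino acids. Both are built from ribosomal RNA and a fixed set of proteins, most of them encoded by 1 gene each and kept near equal amounts by shared control of transcription and translation. Their messengers typically begin with a run of pyrimidines, the terminal oligopyrimidine tract, through which translation is tuned to growth signals. The mouse genome holds many processed pseudogenes of these genes. Male germ cells also use intronless or testis-enriched copies: Rpl10l replaces the X-linked Rpl10 while the X chromosome is silent in meiosis, and Rpl39l is the germ-cell form of Rpl39.

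Promoter letters are shown for the members that passed a test between genotypes and for 2 germ-cell copies whose values followed the family across the arrays. A RefSeq start (assembly GRCm38.p6) was found for 50 of the 62 members. Over 250 bases before to 50 after the start, CCGGAAG, the core of an ETS family motif, stood on either strand in 18 of the 50 (36%) and in 9.12% of the 27025 genes with a window. AAGATGG, a YY1 core, stood in 4 (8%, against 6.48%), and TATAAA stood in 5 (10%, against 14.2%). A run of at least 8 pyrimidines on the gene's strand, from 20 bases before to 30 after the start, was found in 22 (44%, against 18.8%). CCGGAAG and AAGATGG can share the letters AAG, and the first 5 letters of CTTCCGG, its complement, can lie in a pyrimidine run. A match is only a description. The stretches below hold 80 bases before and 20 after the listed start for the 4 genes that passed a test and for both germ-cell paralogs; capitals mark CCGGAAG or its complement and pyrimidine runs of at least 8.
Rpl10a: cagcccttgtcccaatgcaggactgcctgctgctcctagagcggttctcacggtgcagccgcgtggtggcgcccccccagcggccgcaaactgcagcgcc
Rpl4: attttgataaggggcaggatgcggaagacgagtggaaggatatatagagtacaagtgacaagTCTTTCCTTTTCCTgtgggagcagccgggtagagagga
Rps3: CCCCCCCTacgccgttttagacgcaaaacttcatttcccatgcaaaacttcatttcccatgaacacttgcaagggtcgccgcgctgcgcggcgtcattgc
Rpl41: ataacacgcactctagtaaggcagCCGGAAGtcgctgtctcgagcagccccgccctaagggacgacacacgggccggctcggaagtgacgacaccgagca
Rpl10l: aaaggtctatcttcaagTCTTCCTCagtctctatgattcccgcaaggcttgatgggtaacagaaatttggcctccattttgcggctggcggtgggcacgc
Rpl39l: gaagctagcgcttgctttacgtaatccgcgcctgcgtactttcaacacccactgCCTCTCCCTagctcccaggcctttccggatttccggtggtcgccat
Within these 100 bases Rpl41 held CCGGAAG. The Rpl4 stretch had its pyrimidine run just before the listed start, and Rps3, Rpl10l and Rpl39l had a run farther upstream. The Rpl10a stretch held neither. The stretches lie at chr17:28328391-28328490 (plus strand, Rpl10a), chr9:64173307-64173406 (plus, Rpl4), chr7:99483690-99483789 (minus, Rps3), chr10:128549149-128549248 (minus, Rpl41), chr12:66284382-66284481 (minus, Rpl10l) and chr16:10170148-10170247 (plus, Rpl39l).

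Array medians lay between 66.6 and 71.8 on the deposited intensity scale, and the small number of arrays limits the precision. Piwil1 read 389 and 371 in MIWI +/-, 680 and 749 in MIWI +/KI, 196 and 151 in MIWI -/- and 672 and 696 in MIWI -/KI, so it was lowest where only null alleles are present. All 24 listed round spermatid markers reached the array median on at least 1 array. Their summed intensity ran from 56162 to 59248 in MIWI +/-, from 45194 to 47671 in MIWI +/KI, from 28534 to 28616 in MIWI -/- and from 30311 to 32381 in MIWI -/KI. The 26 Sertoli markers summed to 4368 to 4777, 3542 to 4165, 2696 to 3423 and 2636 to 3290 in the same order, with 5 of the 26 below the array median on every array. Spermatogonial (25 genes, 5 below the median throughout), spermatocyte (25, 1), Leydig (12, 1), blood and macrophage (18, 3) and stromal (23, 7) markers summed to 5778 to 7220, 13719 to 17325, 1674 to 2299, 2071 to 3296 and 2840 to 5009 over the 8 arrays.

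The ribosomal protein genes moved largely as a block, and the arrays of MIWI -/- stood apart from each other in it. Relative to each gene's mean over the 8 arrays, the median member lay at 0.18 and 0.10 log2 units in MIWI +/- replicates 1 and 2 and at -0.17 and -0.27 in MIWI +/KI. It lay at 0.29 and -0.23 in MIWI -/- and at 0.13 and -0.12 in MIWI -/KI, while the median of all genes stayed between -0.08 and 0.05. The summed member intensity followed: 58147 and 54785 in MIWI +/-, 45407 and 42433 in MIWI +/KI, 61319 and 42266 in MIWI -/-, and 55120 and 48362 in MIWI -/KI. The highest and the lowest of the 8 sums were thus both from MIWI -/-. In total RNA, a smaller share of cells with much ribosomal protein messenger and less of it per cell cannot be told apart.

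**Figure D1:**
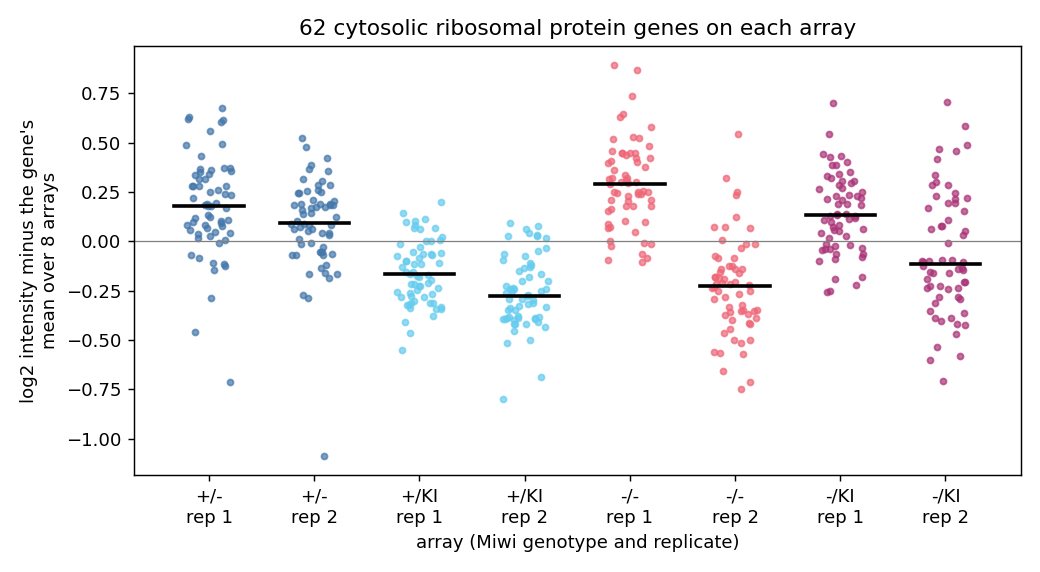
Log2 intensity of each of the 62 members minus that gene's mean over the 8 arrays (vertical axis), for each array (horizontal axis). Points are genes and bars are medians; the bars of both MIWI +/KI arrays (-0.17 and -0.27) lie below those of both MIWI +/- arrays (0.18 and 0.10), and the MIWI -/- arrays lie on opposite sides of 0 (0.29 and -0.23).

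Between the MIWI -/- arrays, 55 of the 62 members (88.7%) were higher in replicate 1, with a median gap of 0.55 log2 units. Over all genes, 41.2% were higher in replicate 1, with a median gap of -0.05. The widest gaps were 1.45 for Rps27l, 1.45 for Rps29 and 1.07 for Rpl8, a protein near the catalytic centre of the large subunit. The other members went the other way, among them Rplp2 (-0.26), Rps15a (-0.25) and Rps23rg1 (-0.18). The mitochondrial ribosomal protein genes, a separate family encoded in the nucleus, had a gap of 0.41, with 69 of 77 higher in replicate 1. Leydig markers stood at 0.38 in replicate 1 and -0.15 in replicate 2, and spermatocyte markers at 0.14 and -0.04. Sertoli markers stood at -0.07 and -0.20, round spermatid markers at -0.15 and -0.19, and spermatogonial markers at 0.01 and -0.01. Blood and macrophage (-0.07 and 0.00) and stromal markers (-0.11 and 0.05) stood higher in replicate 2. The part of these cells in the gap was not tested. The gap was smaller elsewhere: 0.09 in MIWI +/-, 0.09 in MIWI +/KI and 0.22 in MIWI -/KI, where 45 of 62 were higher in replicate 1 against 60.7% of all genes. Rps19 (1.00), Rps29 (1.04) and Rps3a1 (-0.90) had wide gaps in MIWI -/KI.

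The shared movement can be put per gene: a member's log2 intensity was correlated with the median of the other members over the 8 arrays. Genes read on the same array share its RNA, labelling and normalization. The median r was 0.80, and 31 of 62 members (50%) were above 0.8, against 2.03% of the other genes. Highest were Rpl39l (0.96), Rpl10l (0.96), Rps13 (0.96), Rps9 (0.95) and Rpl13 (0.95). Lowest were Rpl3l (-0.20), the striated muscle form of Rpl3, Rplp2 (-0.15), an acidic stalk protein, and Rps23rg1 (-0.13), a retrogene of Rps23. Signal was weak for Rpl3l (26 to 34) and Rps23rg1 (47 to 59), below the median of every array. The genes that passed a test between genotypes were loosely tied to the block, with r of 0.08 for Rpl10a, 0.27 for Rpl4, 0.30 for Rpl41 and 0.41 for Rps3. They were picked by tests on the same arrays, where following the gap within MIWI -/- widens the SE. Their low r is therefore not a separate result.

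With null alleles only, 1 of the 62 members changed and most others read slightly lower without passing the test. In MIWI -/- against MIWI +/- the 1 call (limma, adjusted p under 0.05) was higher and 0 were lower, where 6.13% of all genes were called (2.6% higher, 3.53% lower); 6 members had an unadjusted p under 0.05. The median difference was -0.16 log2 units (all genes 0.01), with 42 of 62 below 0. That median turned to 0.06 without MIWI -/- replicate 2 and stood at -0.33 without replicate 1. Arrays did not overlap for 4 members that were higher and 11 that were lower, against 27% and 22.4% of all genes. The number called was 0 without MIWI +/- replicate 2, 2 without either MIWI -/KI array, where Rpl41 was added, and 4 without MIWI -/- replicate 1, where Rps20 (-1.31), Rpl7 (-1.03) and Rpl27a (-0.67) joined Rpl10a.

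The gene that rose was Rpl10a, which encodes the protein of the L1 stalk, a mobile arm of the large subunit at the exit site of transfer RNA. Its intensity was 592 and 456 in MIWI +/-, 870 and 709 in MIWI +/KI, 1769 and 1415 in MIWI -/-, and 1578 and 1181 in MIWI -/KI. The arrays without a wild-type allele were all above those with one, and MIWI +/KI lay above MIWI +/- with no overlap. Rpl10a was 3.04-fold higher in MIWI -/- than in MIWI +/- (log2 difference 1.61, SE 0.21, limma adjusted p = 0.00474). It was 2.63-fold higher in MIWI -/KI than in MIWI +/- (1.39, SE 0.21, limma adjusted p = 0.00963). Against MIWI +/KI, the difference in MIWI -/KI was 0.80 (limma adjusted p = 0.115), and MIWI +/KI itself differed from MIWI +/- by 0.60 (limma adjusted p = 0.334), neither past the threshold. Of 21 alternatives for each mutant, the call was lost in 1, without MIWI +/- replicate 2 (limma adjusted p = 0.0551 in MIWI -/- and 0.0888 in MIWI -/KI); over the alternatives the adjusted p ran from 0.000738 to 0.0551 and from 0.00147 to 0.0888.

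**Figure D2:**
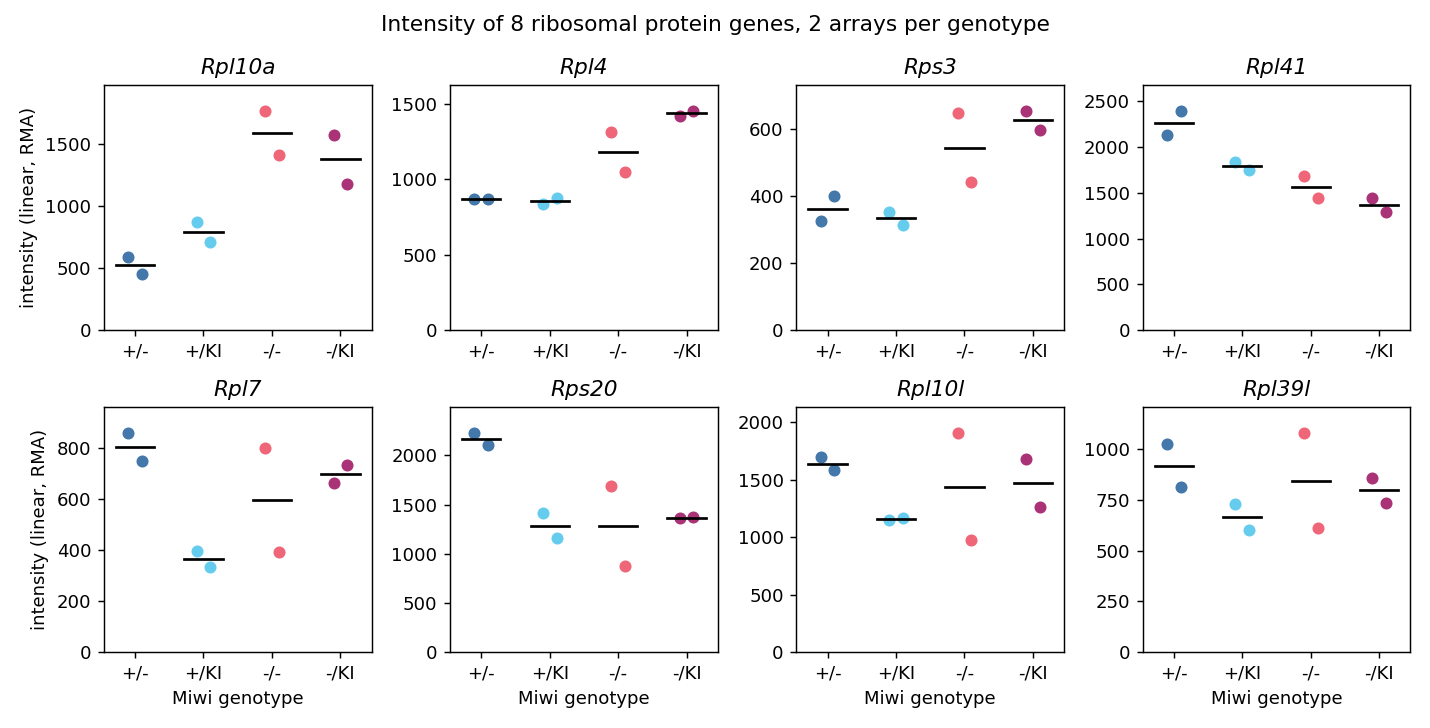
Linear intensity (vertical axes, from 0) of 8 members in the 4 Miwi genotypes (horizontal axes); points are arrays, 2 per genotype, and bars are their means. Rpl10a, Rpl4 and Rps3 are high without a wild-type allele and Rpl41 is low, whereas Rpl7, Rps20, Rpl10l and Rpl39l are low in MIWI +/KI and split between the MIWI -/- arrays.

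Rpl10a was read on 4 array features (transcript clusters), of which the one with the highest mean was used. Cluster numbers follow genome order, so the genes named on neighbouring clusters show roughly where a cluster was designed; by this reading, 1 of the 4 sat at the Rpl10a gene and the feature used sat elsewhere. All 4 were called in MIWI -/-, with differences of 1.61, 1.54, 1.54 and 1.52, and the feature at the gene's own place gave 1.54. Probes of near-identical copies can share signal, so the source locus of the added messenger was not told apart.

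In MIWI -/KI against MIWI +/-, 3 of 62 members changed (2 higher, 1 lower), against 6.23% of all genes (3.11% higher and 3.12% lower); 7 had an unadjusted p under 0.05. The median was -0.14 (all genes -0.00), with 43 of 62 below 0, and it was 0.02 without MIWI -/KI replicate 2. Arrays did not overlap for 7 members that were higher and 17 that were lower, against 23.2% and 18.2% of all genes. Beside Rpl10a the calls were Rpl4 and Rpl41. The count was 0 without MIWI +/- replicate 2, 1 without MIWI +/- replicate 1, MIWI -/KI replicate 2 or either MIWI +/KI array, and 5 without either MIWI -/- array (Rps3 and Rps20 added) or without MIWI -/KI replicate 1 (Rpl36 and Rps19 added).

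Rpl4, a large-subunit protein whose extension lines the tunnel through which new chains leave, read 867 and 868 in MIWI +/-, 840 and 874 in MIWI +/KI, 1315 and 1049 in MIWI -/- and 1423 and 1452 in MIWI -/KI. The 4 arrays with a wild-type allele were nearly level and all below the other 4. Rpl4 was 1.66-fold higher in MIWI -/KI than in MIWI +/- (log2 difference 0.73, SE 0.14, limma adjusted p = 0.0265), and 0.75 higher than in MIWI +/KI (limma adjusted p = 0.0453). In MIWI -/- the difference was 0.44 (limma adjusted p = 0.158). Its call against MIWI +/- was lost in 7 of 21 alternatives (range of limma adjusted p 0.0118 to 0.177), including without either MIWI +/- array, either MIWI +/KI array or MIWI -/KI replicate 2. Its call against MIWI +/KI was lost in 12 of 21 (0.0194 to 0.388), including without the same 5 arrays.

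Rpl41, the shortest ribosomal protein, at the interface of the subunits, read 2133 and 2390 in MIWI +/-, 1838 and 1745 in MIWI +/KI, 1686 and 1440 in MIWI -/-, and 1439 and 1294 in MIWI -/KI. The 4 arrays without a wild-type allele were all below the other 4. It was 1.65-fold lower in MIWI -/KI than in MIWI +/- (log2 difference -0.73, SE 0.13, limma adjusted p = 0.0202), and in MIWI -/- the difference was -0.53 (limma adjusted p = 0.0664). The call in MIWI -/KI was lost in 7 of 20 alternatives (limma adjusted p 0.00771 to 0.181), including without either MIWI +/- array, either MIWI +/KI array or MIWI -/KI replicate 2. Its 3 clusters held identical values and none sat at the gene's own place.

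Against MIWI +/KI, which carries the same knock-in allele beside a wild-type one, MIWI -/KI showed the opposite sign for the block. The median difference was 0.25 (all genes -0.03), 49 of 62 members were above 0, and arrays did not overlap for 31 members that were higher and 4 that were lower, against 25% and 24.1% of all genes. Only Rpl4 passed the test (1 higher, 0 lower), against 2.43% of all genes (1.14% higher and 1.29% lower), and 14 members had an unadjusted p under 0.05. Leydig markers had a median of 0.45 there (8 of 12 above 0) and spermatocyte markers 0.35 (20 of 25 above 0). Sertoli markers went the other way, with a median of -0.29 (24 of 26 below 0). Medians were -0.20 for round spermatid, -0.13 for stromal, -0.02 for blood and macrophage and 0.00 for spermatogonial markers. The part of these cells was not tested. The members' median ran from 0.11 without MIWI -/KI replicate 1 to 0.35 without replicate 2. The count of calls was 0 without MIWI -/KI replicate 2, without either MIWI +/- array or without either MIWI +/KI array, and 4 without either MIWI -/- array (Rpl7, Rpl9 and Rps3 added) or without MIWI -/KI replicate 1 (Rpl30, Rpl7l1 and Rps19 added). Both this comparison and the next use the MIWI +/KI arrays, which were low, so their signs are tied.

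In MIWI +/KI against MIWI +/-, where both genotypes keep a wild-type allele, the block was lower as a whole although no member passed the main test. The median difference was -0.33 (all genes 0.02), 55 of 62 members were below 0 (88.7%, against 46% of all genes), and 48 members were lower with no overlap of arrays, against 26% of all genes; 3 were higher, against 30.9%. With limma, 0 members were called, against 0.0953% of all genes (0.0251% higher and 0.0702% lower, 19 in number), and 14 had an unadjusted p under 0.05. The median stayed between -0.40 and -0.30 when any MIWI +/- or MIWI +/KI array was left out. Leaving out an array of the other genotypes cannot change these differences. The pooled SD of the members' median log2 intensity between replicates of a genotype was 0.26. The median difference was -0.33 for Rpl symbols and -0.35 for Rps symbols. Mitochondrial ribosomal protein genes had a median of -0.23, translation factors -0.29, round spermatid markers -0.27, Leydig markers -0.11 and Sertoli markers -0.08. Medians were -0.07 for blood and macrophage, -0.04 for spermatocyte, 0.02 for spermatogonial and 0.02 for stromal markers. The part of other cell types was not tested.

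This comparison depended on how the variance was estimated. With only the 4 arrays of both genotypes in the fit, 14 members were called and all were lower, against 3.69% of all genes lower and 3.7% higher. With array weights, which give the MIWI +/KI arrays the most weight, 9 were called, all lower, against 4.33% lower and 4.69% higher. The 14 were Rpl7, Rps20, Rpl19, Rpl26, Rpl6, Rpl13, Rps25, Rpl37a, Rpl27a, Rps6, Rpl10l, Rps7, Rpl23a and Rpl23, and their differences ran from -1.14 to -0.42. Rpl7, a large-subunit protein, read 860 and 752 in MIWI +/- and 399 and 336 in MIWI +/KI, then 802 and 395 in MIWI -/- and 665 and 736 in MIWI -/KI. It was thus low on 3 of 8 arrays, both MIWI +/KI arrays and 1 of MIWI -/- (log2 difference -1.14, SE 0.30, limma adjusted p = 0.216 in the fit over all arrays and 0.0185 with only the 4). Rps20, in the head of the small subunit, read 2225 and 2106 in MIWI +/-, 1410 and 1161 in MIWI +/KI, 1691 and 871 in MIWI -/- and 1364 and 1370 in MIWI -/KI. Every array of the other genotypes was below both MIWI +/- arrays, and the differences from MIWI +/- were -0.76, -0.83 and -0.66 in MIWI +/KI, MIWI -/- and MIWI -/KI, none past the threshold.

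**Figure D3:**
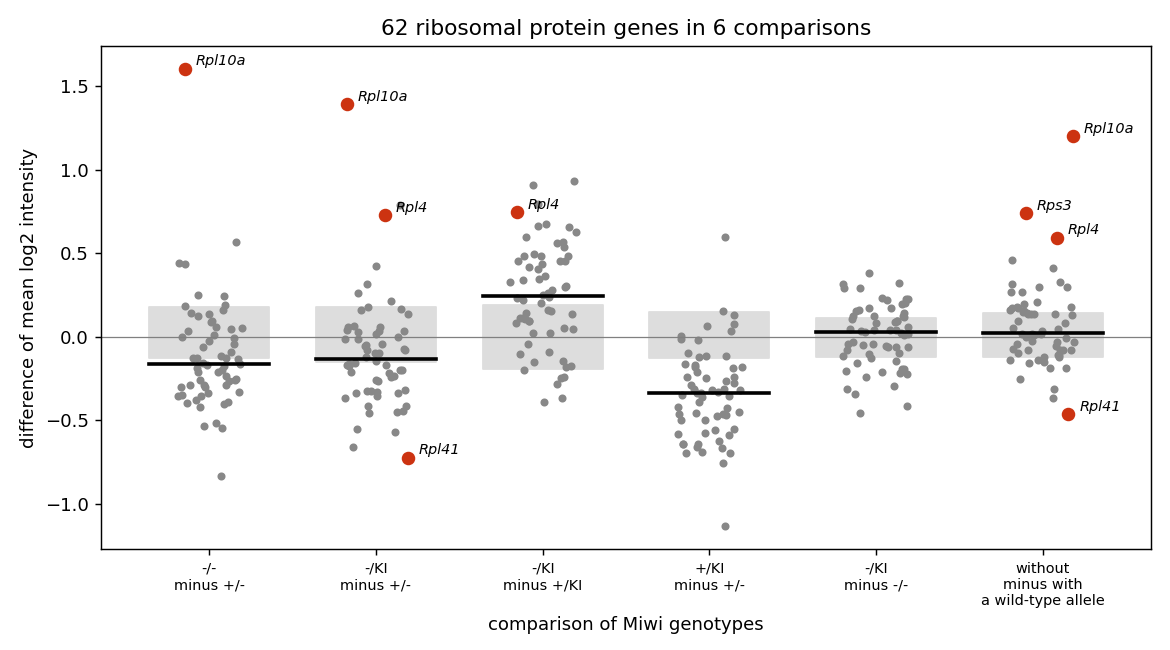
Difference of mean log2 intensity (vertical axis) of each of the 62 members in 6 comparisons of Miwi genotypes (horizontal axis). Red points passed limma's adjusted p under 0.05, grey points did not, black bars are member medians and grey bands hold the middle 50% of all genes; the bar is lowest in MIWI +/KI against MIWI +/- (-0.33) and highest in MIWI -/KI against MIWI +/KI (0.25).

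Between the mutants, MIWI -/KI against MIWI -/-, 0 members were called with limma and 0% of all genes, with 2 members at an unadjusted p under 0.05. The median was 0.03 (all genes -0.01), and it was 0.34 without MIWI -/- replicate 1 and -0.22 without replicate 2. Arrays did not overlap for 1 member that was higher and 5 that were lower, against 11.9% and 10.9% of all genes. The difference between the 2 comparisons within a knock-in or null background, (MIWI -/KI minus MIWI +/KI) minus (MIWI -/- minus MIWI +/-), likewise had 0 calls among members and among all genes, with 12 members at an unadjusted p under 0.05 and a median of 0.39 (all genes -0.03). Its count was 3 without MIWI -/- replicate 1: Rpl7 (1.96), Rps20 (1.41) and Rpl6 (1.31).

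Averaged over both backgrounds, genotypes without a wild-type allele differed from those with one in 4 of 62 members (3 higher, 1 lower), against 8.26% of all genes (4.33% higher and 3.93% lower); 8 had an unadjusted p under 0.05. Rpl10a rose by 1.20 (SE 0.15, limma adjusted p = 0.00275), Rpl4 by 0.59 (SE 0.10, limma adjusted p = 0.0115) and Rps3 by 0.74 (SE 0.15, limma adjusted p = 0.0245), and Rpl41 fell by 0.46 (limma adjusted p = 0.0251). The median member was 0.03 (all genes -0.01). These 4 were also the members whose 4 arrays without a wild-type allele did not overlap the other 4 (3 higher and 1 lower, against 9.39% and 6.53% of all genes). The count was 1, Rpl10a, without any 1 of the MIWI +/- or MIWI +/KI arrays, and 6 without MIWI -/KI replicate 1, where Rpl36 and Rps19 were added. Without MIWI -/- replicate 1 Rps3 was lost and Rps20 was called, and without MIWI -/- replicate 2 Rpl41 was lost and Rpl5 and Rpl9 were called.

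Rps3 lies where messenger RNA enters the small subunit and also has roles in DNA repair. It read 325 and 399 in MIWI +/-, 353 and 313 in MIWI +/KI, 645 and 442 in MIWI -/- and 652 and 597 in MIWI -/KI. All 4 arrays without a wild-type allele were above the others, the lowest of them MIWI -/- replicate 2. Against MIWI +/- its difference was 0.57 in the null (limma adjusted p = 0.222) and 0.79 in MIWI -/KI (limma adjusted p = 0.0844), and MIWI -/KI differed from MIWI +/KI by 0.91 (limma adjusted p = 0.0822). The averaged call was lost in 5 of 20 alternatives (limma adjusted p 0.00896 to 0.127), that of Rpl4 in 4 of 20 (0.00461 to 0.0843) and that of Rpl41 in 5 of 19 (0.0106 to 0.154). Rpl10a kept its averaged call in 20 of 20.

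Among members that did not pass, the largest differences in MIWI -/- against MIWI +/- were, on the higher side, Rps3 (0.57), Rps15 (0.44), Rpl4 (0.44), Rpl9 (0.25) and Rps21 (0.24), and on the lower side Rps20 (-0.83), Rpl8 (-0.55), Rpl41 (-0.53), Rpl7 (-0.52), Rpl26 (-0.42) and Rplp1 (-0.40). For MIWI -/KI against MIWI +/-, the same list was Rps3 (0.79), Rpl9 (0.42), Rpl36a (0.31) and Rpl30 (0.26), and Rps20 (-0.66), Rpl36 (-0.57), Rps12 (-0.55), Rpl8 (-0.46) and Rplp1 (-0.45). Rps20, Rpl8 and Rplp1 thus stood on the lower side in both, although both comparisons use the MIWI +/- arrays. For MIWI -/KI set against MIWI +/KI, it was Rpl7 (0.94), Rps3 (0.91), Rpl10a (0.80), Rps3a1 (0.68) and Rpl9 (0.67), and Rpl41 (-0.39), Rpl36 (-0.36), Rps10 (-0.28), Rps19 (-0.25), Rps18 (-0.24) and Rpl29 (-0.20).

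In MIWI +/KI against MIWI +/- the lowest were Rpl7 (-1.14), Rps20 (-0.76), Rpl19 (-0.69), Rpl26 (-0.69), Rpl8 (-0.69) and Rps12 (-0.66), and the highest were Rpl10a (0.60), Rps15 (0.16), Rplp2 (0.13), Rpl3l (0.08), Rps10 (0.07) and Rps23rg1 (0.04). Clusters of Rps15 ran from -0.27 to 0.16 in this comparison, so its sign depended on the cluster. Rpl3l and Rps23rg1 read below the lowest array median, 66.6, on every array. Between the mutants, MIWI -/KI minus MIWI -/-, the highest were Rpl30 (0.38), Rps3a1 (0.32), Rpl7 (0.32), Rpl6 (0.29), Rpl4 (0.29) and Rps6 (0.23), and the lowest were Rps15 (-0.46), Rps15a (-0.42), Rps10 (-0.34), Rpl36 (-0.32), Rps21 (-0.29) and Rplp2 (-0.24). Without against with a wild-type allele, Rpl9 (0.46), Rpl36a (0.41) and Rpl5 (0.33) followed the 3 that rose, and Rps20 (-0.37), Rpl36 (-0.31), Rps19 (-0.25), Rps18 (-0.19) and Rpl29 (-0.19) followed Rpl41. The median SE of a member's difference between genotypes was 0.21.

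The germ-cell paralogs tracked the block. Rpl10l read 1692 and 1586 in MIWI +/-, 1145 and 1170 in MIWI +/KI, 1902 and 975 in MIWI -/- and 1681 and 1261 in MIWI -/KI. The MIWI -/- arrays held both the highest and the lowest value. Its X-linked parent Rpl10 read 745 and 569, 554 and 545, 741 and 540, and 788 and 587 in the same order. The Rpl10 cluster used did not sit at the gene's own place, so the source locus of its signal was not told apart. Rpl10l differed from MIWI +/- by -0.50 in MIWI +/KI, -0.27 in MIWI -/- and -0.17 in MIWI -/KI (SE 0.29, limma adjusted p of 0.586, 0.823 and 0.878), and Rpl10 by -0.25, -0.04 and 0.06. Rpl39l read 1023 and 813, 729 and 601, 1078 and 610, and 857 and 736, with differences of -0.46, -0.17 and -0.20 (SE 0.27, limma adjusted p of 0.594, 0.909 and 0.839).

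The genes most like Rpl10l over the 8 arrays by Pearson's r of log2 intensity were Ykt6 (0.98), Snf8 (0.98), Psmb3 (0.97), Slc39a7 (0.97) and Cox6b1 (0.97). For Rpl39l they were Rps27l (0.97), Zmynd12 (0.97), Cyc1 (0.97), Atp5o (0.97) and Rps13 (0.97), so 2 of its 5 were members of the family. Further measured paralogs were Rpl3l, Rpl7l1, Rps27l and Rps4l. In MIWI +/KI against MIWI +/- they differed by 0.08, -0.46, -0.64 and -0.32, and in MIWI -/- against MIWI +/- by -0.01, -0.06, -0.02 and 0.03, and none passed the test. Rps27l, a target of p53, read 321 and 211 in MIWI +/-, 196 and 142 in MIWI +/KI, 424 and 155 in MIWI -/- and 292 and 207 in MIWI -/KI.

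On the X chromosome were Rpl10, Rps4x and Rpl36a. In MIWI +/KI against MIWI +/- they differed by -0.25, -0.33 and -0.32, in MIWI -/- by -0.04, -0.09 and 0.19, and in MIWI -/KI by 0.06, -0.04 and 0.31, none past the threshold. The medians of these 3 were -0.32, -0.04 and 0.06, beside -0.35, -0.17 and -0.16 for the other 59. The cluster used sat at the gene's own place for Rpl36a only. For Rpl10 and Rps4x it sat elsewhere, although each also had a cluster at its own place. Over all its clusters in MIWI +/KI against MIWI +/-, Rpl10 ran from -0.30 to -0.24 and Rps4x from -0.33 to -0.21. The stalk proteins, which recruit elongation factors, did not move as 1 unit. Rplp1 read 2504 and 1724 in MIWI +/-, 1505 and 1334 in MIWI +/KI, 2148 and 1153 in MIWI -/- and 2128 and 1091 in MIWI -/KI, with replicate 1 the higher each time. Rplp0 ran from 1397 to 2232 and Rplp2 from 114 to 168, both with differences between -0.24 and 0.19 in the 5 pairs of genotypes compared. Rpsa, the small-subunit protein also known as the laminin receptor, differed from MIWI +/- by -0.47, -0.29 and -0.33 in MIWI +/KI, MIWI -/- and MIWI -/KI, none past the threshold. Over its 5 clusters the differences ran from -0.47 to -0.24, from -0.29 to 0.06 and from -0.33 to -0.01 in the same order. The cluster used was thus the most negative each time. For Rpsa and Rplp0 it sat elsewhere, although each also had a cluster at its own place.

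Intensities of different clusters depend on their probes and are not levels to be ranked between genes. On that scale the brightest members by mean log2 intensity were Rps6 (11.18), Rps18 (11.17), Rpl21 (11.06), Rps7 (11.03), Rplp0 (10.92) and Rpl28 (10.84). The dimmest were Rpl3l (4.94), Rpl12 (5.34), Rps23rg1 (5.69), Rpl14 (6.55), Rpl22 (6.75) and Rps3a1 (6.81). Rps6, whose protein is phosphorylated by growth-controlled kinases, read 2815 and 2781 in MIWI +/- and 2086 and 1736 in MIWI +/KI. Rps18 was nearly level there, with 2324 and 2606 against 2475 and 2467.

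The members were read on 218 clusters with 1 symbol, and 39 of the 62 had more than 1, up to 14 for Rps12. By the names on the 3 neighbours on each side, 56 of the 218 sat at the gene's own place and 162 elsewhere in the genome. The cluster used sat at the gene's own place for 30 members and elsewhere for 26 that also had 1 there, and 6 members (Rpl7a, Rpl21, Rpl29, Rpl37a, Rpl41 and Rps3a1) had none. The clusters of a gene had a median range of 0.09 in MIWI -/- against MIWI +/- and the same sign in 34 of 39, although 7 members hold clusters with identical values, which narrows the ranges. Rps28 had the widest range, 0.67, from 0.13 to 0.80. One of its clusters that was not used passed the test without against with a wild-type allele (0.90, limma adjusted p = 0.0156), while the cluster used gave 0.30 (limma adjusted p = 0.532). With the cluster at each gene's own place, an alternative chosen after seeing the data, the member medians were -0.12, -0.14 and -0.33 in MIWI -/-, MIWI -/KI and MIWI +/KI against MIWI +/-.

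**Figure D4:**
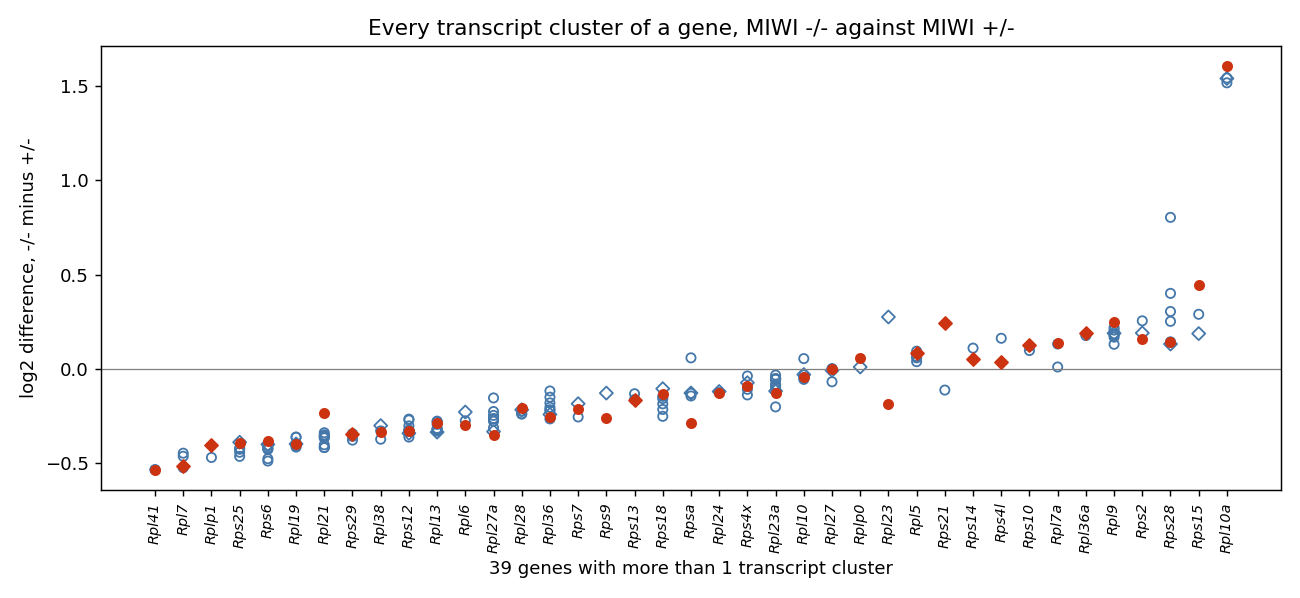
Log2 difference of MIWI -/- minus MIWI +/- (vertical axis) for every cluster of the 39 members with more than 1 (horizontal axis, by gene). Red filled symbols are the clusters used, open symbols the others, and diamonds those at the gene's own place; the 4 clusters of Rpl10a lie between 1.52 and 1.61, and those of Rps28 spread from 0.13 to 0.80.

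Other genes of the ribosome pathway were followed through lists. Of 77 mitochondrial ribosomal protein genes, 4 rose in MIWI -/- against MIWI +/-, where 2.6% of all genes did (Mrps12 0.99, Mrps7 0.84, Mrpl38 0.82 and Mrpl37 0.78) and 0 fell, with a median of 0.03. One gene, Mrps7 (0.99), rose in MIWI -/KI against MIWI +/- (3.11% of all genes) and 0 fell, with a median of 0.14, and against MIWI +/KI 1 rose (Mrpl16, 1.01; 1.14% of all genes), with a median of 0.23. Without against with a wild-type allele, 5 rose (4.33% of all genes) and 0 fell, Mrps12 (0.82), Mrps7 (0.74), Mrpl16 (0.61) and Mrpl21 (0.56) by the most, and the median was 0.17 beside 0.03 for the cytosolic members.

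Ribosome biogenesis genes, which make and process ribosomal RNA and assemble subunits, had calls in the upward direction only. Of 61 measured, 2 rose in MIWI -/- against MIWI +/-, a share near the 2.6% of all genes that rose: Gnl2 (1.59), a nucleolar GTPase, and Heatr1 (0.96), needed for ribosomal RNA synthesis. Between MIWI -/KI and MIWI +/-, 7 rose, against 3.11% of all genes, led by Gnl2 (1.94), Utp15 (1.42), Heatr1 (1.02) and Taf1b (1.02), a factor of RNA polymerase I, and 0 fell; the medians were 0.09 and 0.30. Against MIWI +/KI, Gnl2 (1.57) and Utp15 (1.45) rose in MIWI -/KI (1.14% of all genes), with a median of 0.37. Without against with a wild-type allele 8 rose (4.33% of all genes) and 0 fell, led by Gnl2 (1.58), Utp15 (1.14), Taf1b (0.87) and Heatr1 (0.78), with a median of 0.21. In MIWI +/KI against MIWI +/- 0 of the 61 were called, with a median of -0.11. Spermatocyte markers were higher beside this list: against MIWI +/-, their medians were 0.13 for the null and 0.18 for MIWI -/KI (22 of 25 above 0 in the latter). For MIWI -/KI minus MIWI +/KI the median was 0.35, and averaged over both backgrounds it was 0.18. Both lists were highest on MIWI -/KI replicate 2, at a median of 0.37 above the gene means for biogenesis and 0.41 for spermatocyte markers, and next highest on MIWI -/- replicate 1 (0.18 and 0.14). Their part in the biogenesis values was not tested.

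Most translation factors that passed a test were lower. Their medians lay near 0 where genotypes without a wild-type allele were set against those with one. In MIWI +/KI against MIWI +/- the median was -0.29, with 0 called. Of 36 measured, 4 fell in MIWI -/- against MIWI +/-, where 3.53% of all genes did: Eif4h (-2.18) and Eif4a2 (-1.58), a helicase cofactor and a helicase of initiation, Eif1ax (-1.45), a scanning factor, and Eef1d (-0.99), of the elongation factor exchange complex. The 4 that fell in MIWI -/KI, against 3.12% of all genes, were Eif4h (-1.99), Eif1ax (-1.13), Eef1d (-1.01) and Tpt1 (-0.79), and 0 rose in either; the medians were -0.06 and -0.04. Against MIWI +/KI, Eif4h fell by 1.30 and Eif3m rose by 1.17 (1.29% of all genes fell and 1.14% rose). Without against with a wild-type allele 6 fell, against 3.93% of all genes, Eif4h (-1.74), Eif1ax (-0.98), Eif4a2 (-0.80) and Eef1d (-0.73) by the most, and 1 rose (4.33%), Eif3k (0.45), with a median of 0.03. Of 20 genes for ribosome number, stress and regulation, 1 rose in MIWI -/- against MIWI +/-, beside 2.6% of all genes. It was Eif2ak1 (0.91), a kinase of initiation factor 2. In MIWI -/KI against MIWI +/-, 0 were called. Averaged over both backgrounds, Eif2ak1 (0.57) was the 1 call, beside 4.33% of all genes that rose. The list's medians were 0.25 (17 of 20 above 0), 0.15 (16 of 20) and 0.09 (15 of 20) in the same order. In MIWI +/KI against MIWI +/- the list's median was 0.11 (16 of 20 above 0). Round spermatid markers are given beside these. In MIWI -/- against MIWI +/-, 11 of 24 fell and 1 rose, beside 3.53% and 2.6% of all genes. In MIWI -/KI against MIWI +/-, 10 fell, beside 3.12% of all genes. The medians of these markers were -0.39 and -0.42, and their part in these lists was not tested.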

How the data were processed

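Total RNA of round spermatids from 8 preparations, 2 of each of 4 Miwi genotypes, was measured on Affymetrix arrays. The deposited values are linear intensities per transcript cluster, made by the authors with RMA per the submitters' processing notes; the version, annotation and aligner are not given in the sources used here. Log2 of each deposited intensity was taken, and 8 cells, in clusters of no member, that were over 100 times the other arrays and look like values with a lost decimal separator were set missing. Of 35512 clusters, 21789 had 1 symbol, 1621 several and 12102 none in the platform annotation, and RefSeq symbols of assembly GRCm38.p6 were matched by Entrez number. Each gene was read on its single-symbol cluster with the highest mean. All comparisons came from limma 3.58.1 (R 4.3.3), with 1 mean per genotype, an intensity trend in the variance (degrees of freedom: 4 residual, 3.976 prior), two-sided tests and Benjamini-Hochberg adjustment over all 35512 clusters at 0.05. A fold change is 2 raised to the absolute difference of mean log2 intensity. A list is described by its counts and median beside all genes. Members and lists were chosen with earlier results of these data known. Named are the called members, the 6 highest and 6 lowest differences of each comparison of genotypes, measured paralogs and parents, X-linked and stalk members with Rpsa, the 6 brightest and 6 dimmest, and up to 4 called genes per list. Alternatives changed the variance model, scaling, filter, pseudocount (16), cluster choice and arrays. The scripts were tested on simulated data. Arrays of 1 genotype correlated with r from 0.970 to 0.995 and of different genotypes from 0.960 to 0.988.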

Additional observations from a re-analysis of the deposited data

How the results depend on the processing

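In all, 0 differences reversed sign among the called members. Many alternatives could not change a difference, such as those of the variance model or without an array of a genotype not compared. The sign was fixed in advance there. In MIWI +/KI against MIWI +/- the number of members called, 0 over all arrays, was 14 with only the arrays compared and 9 with array weights. In MIWI -/- against MIWI +/- it was 1, and 2 with array weights, cyclic loess or low-intensity clusters left out (59 members remained), Rpl41 being added; leaving out 1 array gave 0 to 4. In MIWI -/KI against MIWI +/- it was 3, 1 with only the arrays compared or with array weights, 4 with low-intensity clusters left out (Rps3 added) and 2 with the cluster at the gene's own place, which Rpl41 lacks; leaving out 1 array gave 0 to 5. In MIWI -/KI against MIWI +/KI it was 1, with 0 without the intensity trend, with only the arrays compared, with array weights, and with median centring, quantile or cyclic loess normalization, 2 with low-intensity clusters left out, and 0 to 4 leaving out 1 array. Without against with a wild-type allele it was 4, 5 with low-intensity clusters left out (Rpl9 added) and 3 with the cluster at the gene's own place; leaving out 1 array gave 1 to 6 calls, and for the difference of the differences 0 to 3. The median in MIWI -/KI against MIWI -/- ran from -0.22 to 0.34. Same-numbered arrays of different genotypes had deviations correlated with r from -0.26 to 0.30 over all clusters and from 0.07 to 0.51 over the members, above 0 in all 6 pairs of genotypes for the members; not every pair reached 0.1 in either set and the labels name no pairing, so the numbers were not taken to pair the arrays. With the replicate number as a block, MIWI -/KI against MIWI +/KI still had 1 call, Rpl10a (0.80, limma adjusted p = 0.0304) in place of Rpl4 (0.75, limma adjusted p = 0.0602; 0.0194 to 0.388 over its alternatives), and the calls of the other comparisons were the same genes. With 2 arrays per genotype, outliers within a group could not be tested.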
